A study of Mus musculus with 12 samples.

Results

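The genes described here are 60 genes of proximal mouse chromosome 3, all between about 5 and 55 Mb of the GRCm38 assembly. They were chosen by their level in stem cells that express wild-type netrin-1 (netrin-1 WT) relative to control cells, where they stood higher. Their values in that comparison are therefore given as a description only. All 60 symbols were matched to 1 Ensembl gene each among the 52661 genes of the count table. All 60 also passed the filter on low counts, which 21053 of all genes (40%) passed. The same stretch of chromosome 3 holds 628 other annotated genes, of which 175 passed, and the rest of chromosome 3 holds 2168 genes, of which 822 passed.

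The cells were CGR8, a line of mouse embryonic stem cells grown in serum with the cytokine LIF, and every group was stably transfected with a ppy-cagg-ires-puro plasmid. The netrin-1 WT group carried the plasmid with the wild-type form of netrin-1, a secreted guidance protein. The unc5B MUT and neo1 MUT groups carried netrin-1 with point changes that concern binding to the receptors Unc5b and neogenin, and the control group carried the empty plasmid. Each group had 3 RNA libraries, numbered 1 to 3 in the titles. The labels do not say whether the libraries came from separate cultures, nor whether each group is 1 clone or a pool, so every p-value measures only the spread between these libraries.

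The libraries held 22256195 to 59735737 counts, and those numbered 3 were the shallowest of each group. Ntn1 was at 76.9 to 288 CPM (counts scaled to library size) in netrin-1 WT cells, 34.9 to 322 in unc5B MUT cells, 56.4 to 219 in neo1 MUT cells and 0.782 to 15.4 in control cells, with no overlap between any netrin-1 group and control. All 5 markers of pluripotent cells (Pou5f1, Nanog, Sox2, Esrrb and Zfp42) were present, with summed levels of 2780 to 2970, 2470 to 3100, 2020 to 2790 and 2240 to 3000 CPM in netrin-1 WT, unc5B MUT, neo1 MUT and control. Sox2 itself lies in the stretch of chromosome 3 described here, so this sum is not independent of it. Its mean was 557 CPM in netrin-1 WT and 322 CPM in control. The 7 primitive endoderm markers (such as Gata6 and Dab2) summed to 43.4 to 53.5 CPM in netrin-1 WT cells, 202 to 251 in unc5B MUT cells, 32.9 to 86 in neo1 MUT cells and 359 to 447 in control cells. The 5 trophectoderm markers summed to 22.1 to 28.6, 11.8 to 19.2, 14.7 to 20.6 and 14.3 to 29.3 CPM in the same order of groups, and the 5 markers of 2-cell-like cells to 27.1 to 35.5, 4.4 to 12.2, 4.51 to 42.3 and 2.51 to 8.56 CPM. The 5 fibroblast markers, which would mark feeder cells, summed to at most 6.53 CPM in any library, and Postn was listed at 0 in all unc5B MUT and neo1 MUT libraries. The part of these other cell types in the results on chromosome 3 was not tested. The median log2 fold change of the 60 genes against control was 0.83 in netrin-1 WT, 0.21 in unc5B MUT and 0.11 in neo1 MUT. Its relation to the marker levels was not tested.

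Neighbouring genes of a mammalian chromosome often serve unrelated functions. Many have promoters and enhancers of their own, although some neighbours share them. Stem cell lines in long culture are known to gain or lose whole chromosomes or pieces of them, and genes on a gained piece are often expressed above their usual level. The 60 genes include parts of the cell division machinery (Ect2, Ccna2, Plk4), chromatin and transcription regulators (Actl6a, Supt20, Jade1), mitochondrial proteins (Mfn1, Ndufb5) and signalling proteins (Prkci, Pik3ca). Only RNA was measured here, so the number of copies of the region in these cells was not tested.

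The 60 genes together took a larger share of all counts in the netrin-1 WT libraries than in any other. Their share was 0.905%, 0.927% and 0.681% in netrin-1 WT libraries 1, 2 and 3, 0.505%, 0.537% and 0.424% in unc5B MUT, 0.497%, 0.519% and 0.364% in neo1 MUT, and 0.449%, 0.467% and 0.381% in control. Every netrin-1 WT library was above every library of the other groups, and library 3 was the lowest of each group. The group means were 0.838 ± 0.136%, 0.488 ± 0.0586%, 0.46 ± 0.0837% and 0.432 ± 0.0452% (SD, n = 3 each). The rest of chromosome 3 took 3.07 ± 0.0274% in netrin-1 WT cells, 3.48 ± 0.105% in unc5B MUT cells, 3.2 ± 0.194% in neo1 MUT cells and 3.12 ± 0.123% in control cells. In RNA from whole cultures, a larger number of cells that express a gene and more RNA of it per cell cannot be told apart.

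**Figure D1:**
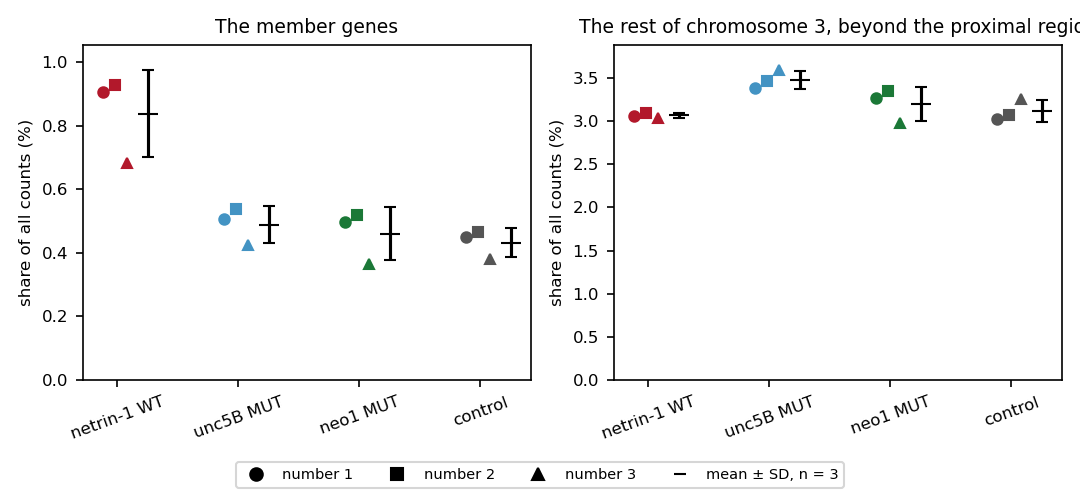
Share of all counts (%, axis from 0) taken by the 60 genes (left) and by the rest of chromosome 3 (right) in each library, with the group mean and SD (n = 3) beside the points and the replicate number given by the symbol. In the left panel the netrin-1 WT libraries lie between 0.681% and 0.927% and all other libraries between 0.364% and 0.537%.

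The median log2 fold change of the 60 genes in netrin-1 WT against control was 0.83, a 1.78-fold higher level, beside a median of 0.01 over all 21053 tested genes. The middle 50% of the 60 genes lay between 0.70 and 1.09, and the whole range ran from -0.42 to 3.26. By fold, 28 genes were 1.5 to 2 times as high in netrin-1 WT as in control, 18 were 2 to 3 times as high, 5 were over 3 times as high, 6 were 1 to 1.5 times as high and 3 were lower. Within the replicate numbers the median log2 difference was 0.94 in number 1, 0.95 in number 2 and 0.83 in number 3. Across the 60 genes the Spearman correlation of the log2 fold change was 0.11 with mean level, 0.14 with position and 0.09 with exonic length, although the genes at the distal end stood higher. These are descriptions over genes that share the same libraries.

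For 38 of the 60 genes all 3 netrin-1 WT libraries were above all 3 control libraries, where 4.89% of all tested genes were so placed, and no gene was placed the other way, against 4.34% of all. Within every replicate number 52 genes were higher in netrin-1 WT, against 17% of all tested genes. The edgeR quasi-likelihood test without the replicate number placed 3 of the 60 (Setd7, Cog6 and Supt20) under an adjusted p of 0.05 as higher, against 0.0332% of all tested genes. With the replicate number as a block in the same model it placed 42 there, against 1.74% of all, and 23 without control library 1. The authors' deposited table placed 46 of them higher at that threshold, against 2.12% of its 20347 genes. Since this comparison chose the genes, nothing is read from these counts. Netrin-1 WT was the highest of the 4 groups in all 3 replicate numbers for 45 of the 60 genes (75%), beside 35.4% of the 175 other tested genes of the region, 2.19% of the 822 in the rest of the chromosome and 4.12% of all tested genes.

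**Figure D2:**
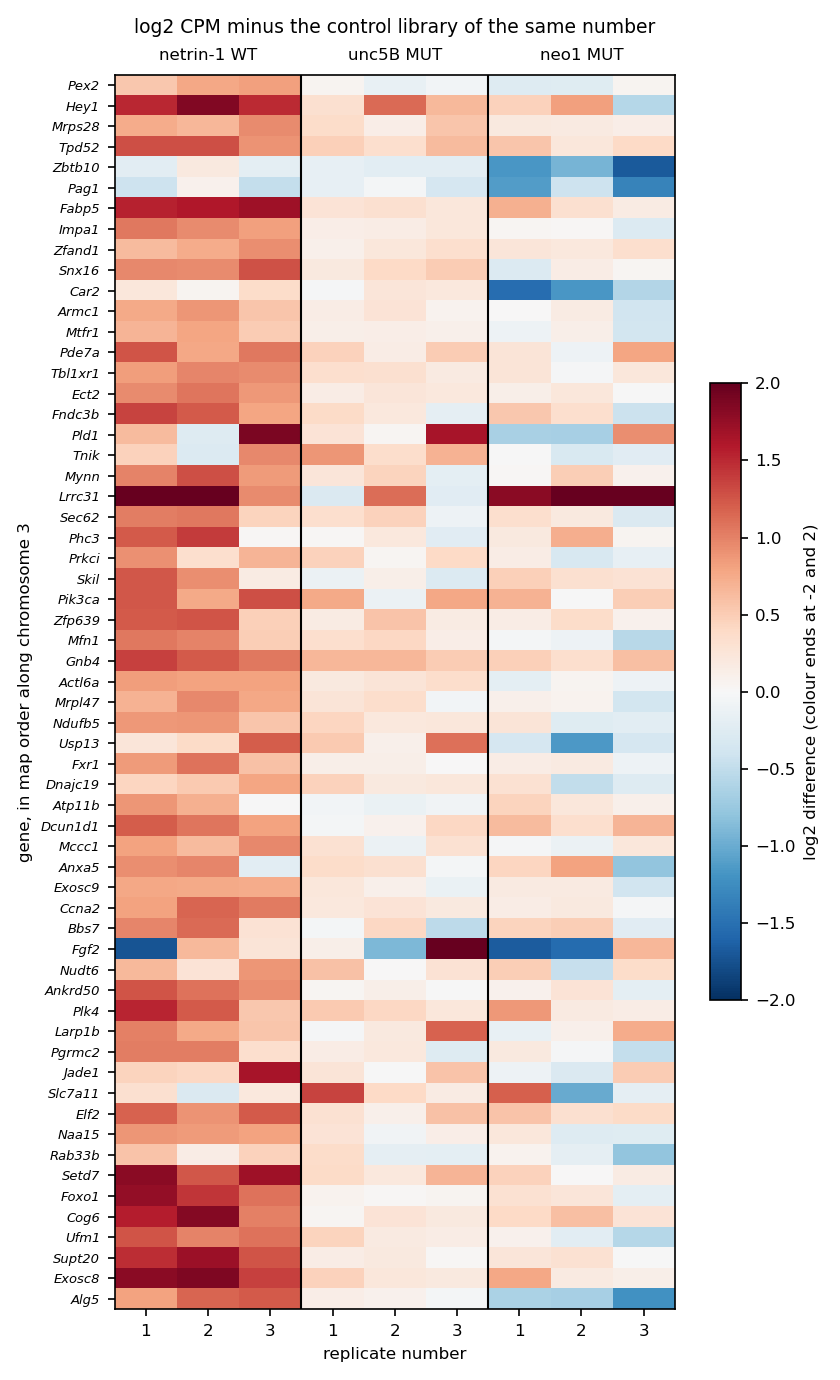
Difference in log2 CPM between each library of netrin-1 WT (left), unc5B MUT (middle) and neo1 MUT (right) and the control library of the same replicate number, for the 60 genes in map order (rows), with red for higher and blue for lower than control and colours ending at -2 and 2. The netrin-1 WT columns are red in nearly every row, with 52 genes higher in all 3 numbers. In unc5B MUT 34 genes are so, against 15.9% of all tested genes, and in neo1 MUT 17 are, against 20%.

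Of the 3 genes of cell division, all had the 3 netrin-1 WT libraries above the 3 control libraries, with log2 fold changes of 0.96 to 1.11. Ect2 (27097222 to 27153878), a protein needed for cytokinesis, was at 428, 461 and 448 CPM in netrin-1 WT cells, 247, 259 and 284 in unc5B MUT cells, 241, 257 and 244 in neo1 MUT cells, and 222, 219 and 245 in control cells. The netrin-1 WT libraries stood far above the rest, and unc5B MUT also lay just above control without overlap; the netrin-1 WT to control fold was 1.95. Ccna2 (36564865 to 36572150), cyclin A2 of S phase and mitotic entry, was at 352, 377 and 363 CPM in netrin-1 WT cells, 232, 202 and 201 in unc5B MUT cells, 222, 191 and 173 in neo1 MUT cells, and 201, 168 and 176 in control cells. Its order was that of Ect2, although its 3′ end overlaps Exosc9, so reads of the pair may have been divided between them. Plk4, the kinase that starts centriole duplication, averaged 140 ± 33.9 CPM in netrin-1 WT cells, 84.2 ± 11.3 in unc5B MUT cells, 84.5 ± 7.52 in neo1 MUT cells and 64.8 ± 11.9 in control cells (SD, n = 3 each), and its libraries in each of the 3 netrin-1 groups were all above control.

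The 13 genes of chromatin and transcription had a median log2 fold change of 1.03 in netrin-1 WT against control, and 8 of them had no overlap between the groups. Supt20 (54692807 to 54728766), a subunit of the SAGA histone acetyltransferase complex, was at 303, 332 and 232 CPM in netrin-1 WT cells, 121, 115 and 98.3 in unc5B MUT cells, 129, 124 and 96.4 in neo1 MUT cells, and 109, 101 and 96.5 in control cells. The 3 other groups lay close together and netrin-1 WT stood 2.83-fold above control. Jade1 (41555731 to 41616864), which directs a histone H4 acetyltransferase, was at 505, 441 and 625 CPM in netrin-1 WT cells, 447, 330 and 297 in unc5B MUT cells, 348, 270 and 284 in neo1 MUT cells, and 372, 331 and 200 in control cells. Here unc5B MUT overlapped both netrin-1 WT and control.

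Actl6a (32706298 to 32726973), the BAF53a subunit of the BAF chromatin remodelling complex of stem cells, was at 324, 286 and 679 CPM in netrin-1 WT cells, 207, 196 and 495 in unc5B MUT cells, 158, 171 and 364 in neo1 MUT cells, and 182, 164 and 390 in control cells. Library 3 was the highest in all groups, so the groups overlapped, while netrin-1 WT led in each number. Skil (31095058 to 31122577), the SnoN repressor of TGF-beta signalling, was at 281, 298 and 47.8 CPM in netrin-1 WT cells, 109, 169 and 35.1 in unc5B MUT cells, 164, 196 and 52.4 in neo1 MUT cells, and 119, 156 and 42.7 in control cells. In Skil library 3 was the lowest of each group, and in number 3 netrin-1 WT was within 0.16 log2 units of control and below neo1 MUT. Hey1 (8663359 to 8667256), a Notch target repressor, was at 3.57, 4.11 and 4.36 CPM in netrin-1 WT cells, 1.53, 2.48 and 2.39 in unc5B MUT cells, 1.69, 1.99 and 0.997 in neo1 MUT cells, and 1.22, 1.1 and 1.51 in control cells. It was 3.15-fold higher in netrin-1 WT than in control, at a low level. Setd7, a lysine methyltransferase, averaged 32.1 ± 3.06 CPM in netrin-1 WT cells, 14.4 ± 1.55 in unc5B MUT cells, 12.4 ± 1.29 in neo1 MUT cells and 10.7 ± 1.23 in control cells (SD, n = 3 each). Foxo1, a forkhead factor restrained by AKT, averaged 128 ± 53.9, 47.6 ± 15.4, 52 ± 22.9 and 46.1 ± 15.3 CPM in the same order of groups. Zbtb10 (9250602 to 9285333), a zinc finger repressor, was an exception. It was at 23.4, 24.2 and 17 CPM in netrin-1 WT cells, 24.1, 18.3 and 16.7 in unc5B MUT cells, 12, 11.1 and 6.03 in neo1 MUT cells, and 27, 21.2 and 19.4 in control cells. Netrin-1 WT overlapped control, and neo1 MUT lay below all other libraries.

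Among the 5 genes of RNA and protein synthesis the median log2 fold change was 0.84 and 3 had no overlap with control. Exosc8 (54728678 to 54735393), a core subunit of the RNA exosome, was at 176, 200 and 214 CPM in netrin-1 WT cells, 69.2, 64.4 and 94.7 in unc5B MUT cells, 85.4, 62 and 89.2 in neo1 MUT cells, and 50.1, 55 and 82.4 in control cells. All netrin-1 WT libraries were far above the rest, at 3.14-fold of control, and the gene overlaps the 3′ end of its neighbour Supt20. Fxr1 (34019943 to 34070322), a relative of the fragile X RNA-binding protein, was at 693, 757 and 373 CPM in netrin-1 WT cells, 420, 386 and 251 in unc5B MUT cells, 429, 405 and 232 in neo1 MUT cells, and 386, 357 and 249 in control cells. Library 3 of netrin-1 WT lay inside the range of control libraries 1 and 2 while being above control library 3. Naa15 (51415148 to 51476507), the ribosome-bound subunit of an N-terminal acetyltransferase, was at 344, 343 and 518 CPM in netrin-1 WT cells, 225, 180 and 327 in unc5B MUT cells, 218, 158 and 251 in neo1 MUT cells, and 186, 190 and 298 in control cells. Larp1b and Exosc9 had log2 fold changes of 0.75 and 0.75.

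Of the 7 mitochondrial genes 6 had no overlap between netrin-1 WT and control, with log2 fold changes of 0.58 to 0.80 over all 7. The exception was Mfn1 (32529465 to 32579239), a GTPase that fuses outer mitochondrial membranes. It was at 108, 109 and 428 CPM in netrin-1 WT cells, 65.8, 73.4 and 333 in unc5B MUT cells, 50.5, 51.3 and 205 in neo1 MUT cells, and 52, 54.8 and 303 in control cells. Its library 3 was several times as high as libraries 1 and 2 in every group, and within each number netrin-1 WT was the highest. Mrps28 and Mrpl47, proteins of the mitochondrial ribosome, Ndufb5 of respiratory complex I, Dnajc19 of the inner membrane, Mtfr1, which acts in mitochondrial fission, and Mccc1 of leucine breakdown made up the rest. Mtfr1, for example, averaged 158 ± 12.4 CPM in netrin-1 WT cells, 109 ± 2.3 in unc5B MUT cells, 93 ± 14 in neo1 MUT cells and 100 ± 2.58 in control cells (SD, n = 3 each).

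The 8 signalling genes were mixed, with 4 of 8 free of overlap, a median log2 fold change of 0.66 and a range of -0.42 to 1.24. Prkci (30995747 to 31052959), the atypical protein kinase C of cell polarity, was at 675, 581 and 498 CPM in netrin-1 WT cells, 492, 472 and 411 in unc5B MUT cells, 397, 369 and 278 in neo1 MUT cells, and 357, 461 and 313 in control cells. Pik3ca, the catalytic p110 alpha subunit of PI3 kinase, averaged 79.8 ± 11.5 CPM in netrin-1 WT cells, 51.7 ± 7.75 in unc5B MUT cells, 49.5 ± 10.2 in neo1 MUT cells and 38.4 ± 12.6 in control cells. Gnb4, a G protein beta subunit, averaged 44.1 ± 11.4, 28.8 ± 6.71, 25.8 ± 2.65 and 18.7 ± 3.41 CPM in the same order (SD, n = 3 each). Those genes were clear of control, but 2 others stood below it on average. Fgf2 (37348346 to 37410108), a growth factor, was at 0.467, 1.38 and 0.145 CPM in netrin-1 WT cells, 1.83, 0.436 and 0.815 in unc5B MUT cells, 0.491, 0.262 and 0.21 in neo1 MUT cells, and 1.68, 0.861 and 0.112 in control cells. It was the least abundant of the 60, it overlaps Nudt6, and its libraries were scattered without order. Pag1 (9687479 to 9833679), an adaptor that brings the kinase Csk to the membrane, was at 8.37, 8.35 and 3.54 CPM in netrin-1 WT cells, 10, 7.62 and 3.91 in unc5B MUT cells, 5.13, 5.86 and 1.94 in neo1 MUT cells, and 11.2, 7.84 and 4.97 in control cells. Pld1 and Tnik, a phospholipase and a kinase, were at means of 2.81 to 5.31 CPM in the groups and were higher than control in netrin-1 WT in numbers 1 and 3 but not in number 2.

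The 11 genes of membrane traffic and organelles had a median log2 fold change of 0.82, and 7 had no overlap. Sec62 (30792875 to 30821263), part of the protein import channel of the endoplasmic reticulum, was at 174, 183 and 172 CPM in netrin-1 WT cells, 107, 122 and 117 in unc5B MUT cells, 107, 101 and 103 in neo1 MUT cells, and 84.9, 87.9 and 126 in control cells. Tpd52 (8925593 to 9004723), a vesicle traffic protein, was at 236, 271 and 282 CPM in netrin-1 WT cells, 135, 140 and 233 in unc5B MUT cells, 141, 129 and 198 in neo1 MUT cells, and 96.5, 111 and 151 in control cells. In both genes every netrin-1 WT library was above every library of the other groups. Atp11b (35754106 to 35856276), a lipid flippase, was at 341, 380 and 278 CPM in netrin-1 WT cells, 177, 213 and 268 in unc5B MUT cells, 252, 272 and 302 in neo1 MUT cells, and 184, 233 and 280 in control cells. In number 3 netrin-1 WT and control were level, at a log2 difference of -0.01. Cog6 of the Golgi tethering complex averaged 132 ± 26.7 CPM in netrin-1 WT cells, 53.4 ± 9.31 in unc5B MUT cells, 63 ± 6.88 in neo1 MUT cells and 47.1 ± 6.07 in control cells (SD, n = 3 each). Alg5 (54735539 to 54751318), a glucosyltransferase of N-glycan precursors, was at 31.1, 27.6 and 40.3 CPM in netrin-1 WT cells, 19.6, 13.1 and 16.7 in unc5B MUT cells, 11.5, 7.74 and 7.34 in neo1 MUT cells, and 17.8, 12.3 and 17.1 in control cells. For Alg5 netrin-1 WT was above and neo1 MUT below all libraries of the other groups.

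The 4 genes of ubiquitin and related modifiers had log2 fold changes of 0.60 to 1.10, and 3 had no overlap. Usp13 (32817546 to 32938071), a deubiquitinase, was at 15.8, 17 and 21 CPM in netrin-1 WT cells, 19.3, 14 and 19.3 in unc5B MUT cells, 10.6, 5.86 and 7.13 in neo1 MUT cells, and 13.4, 13.1 and 8.99 in control cells. Here unc5B MUT reached the level of netrin-1 WT. Among the 6 genes of metabolism and transport 2 were free of overlap, with a median of 0.75. Impa1 (10311956 to 10331439), the inositol monophosphatase, was at 150, 151 and 275 CPM in netrin-1 WT cells, 79.8, 86.7 and 182 in unc5B MUT cells, 74.2, 79.6 and 128 in neo1 MUT cells, and 72.5, 78.5 and 155 in control cells. Car2 (14886273 to 14900770), carbonic anhydrase 2, was at 210, 170 and 134 CPM in netrin-1 WT cells, 176, 194 and 120 in unc5B MUT cells, 62.2, 73.2 and 69.1 in neo1 MUT cells, and 178, 164 and 104 in control cells. Netrin-1 WT, unc5B MUT and control overlapped for Car2, and neo1 MUT stood below them all. Slc7a11, the cystine transporter, averaged 2.66 ± 0.52 CPM in netrin-1 WT and 2.56 ± 0.82 in control (SD, n = 3 each), and Fabp5, a fatty acid binding protein, averaged 16.8 ± 8.6 and 5.36 ± 2.48 CPM.

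The highest log2 fold change of the 60 was that of Lrrc31 (30679058 to 30699843), a leucine-rich repeat protein. It was at 15.9, 20 and 2.52 CPM in netrin-1 WT cells, 1.13, 2.92 and 1.09 in unc5B MUT cells, 5, 11.2 and 5.82 in neo1 MUT cells, and 1.39, 1.32 and 1.28 in control cells. Libraries 1 and 2 of netrin-1 WT and all of neo1 MUT were well above control, while netrin-1 WT library 3 was near the top of unc5B MUT. Armc1 and Fndc3b had log2 fold changes of 0.76 and 1.17.

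**Figure D3:**
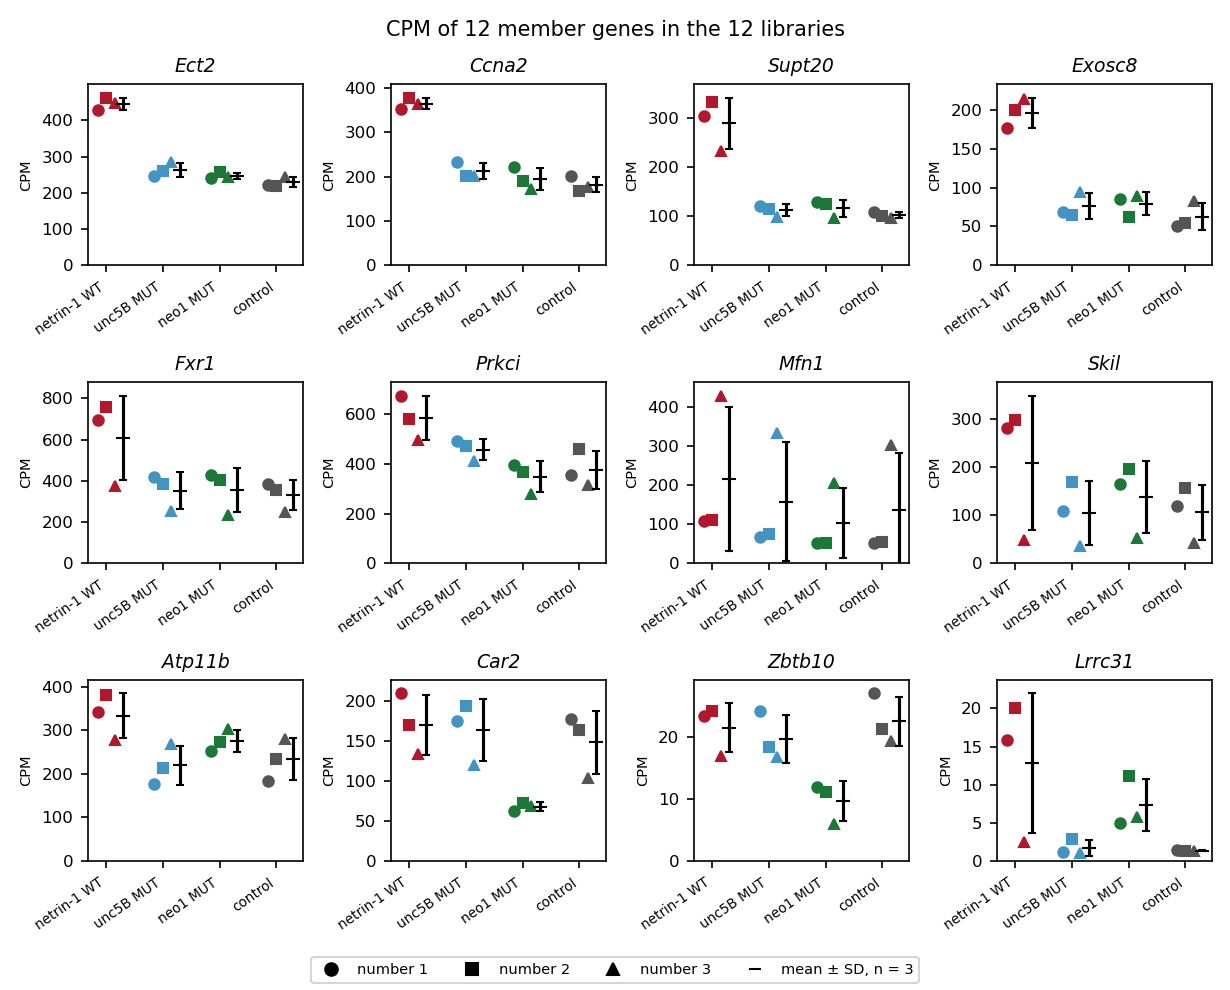
CPM of 12 of the genes in the 12 libraries (axes from 0), with groups from left to right netrin-1 WT, unc5B MUT, neo1 MUT and control, symbols for the replicate numbers and bars for the mean and SD (n = 3), cut off at 0 where the SD exceeds the mean. Ect2, Ccna2, Supt20 and Exosc8 are apart in netrin-1 WT, Mfn1 and Skil differ more between library 3 and the others than between groups, and Car2 and Zbtb10 are lowest in neo1 MUT.

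Promoters were compared because so many of these genes differed alike. RefSeq sequences of 250 bases before to 50 bases after the start of transcription (GRCm38.p6) were found for 41 of the 60 genes. The 19 without one include all 14 members from 5 to 20 Mb, so the promoter values below do not cover that part of the region. Those shown belong to the members with the highest and the lowest fold changes in netrin-1 WT among the 30 most abundant that have one, namely Exosc8 (chr3:54735315-54735614, minus strand) and Supt20 (chr3:54692855-54693154, plus strand) at the high end, and Prkci (chr3:30995521-30995820, plus strand) and Atp11b (chr3:35753813-35754112, plus strand) at the low end. Each is written 5′ to 3′ on the strand of its gene, and capitals mark GGGCGG, the GC box, on either strand.

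Exosc8: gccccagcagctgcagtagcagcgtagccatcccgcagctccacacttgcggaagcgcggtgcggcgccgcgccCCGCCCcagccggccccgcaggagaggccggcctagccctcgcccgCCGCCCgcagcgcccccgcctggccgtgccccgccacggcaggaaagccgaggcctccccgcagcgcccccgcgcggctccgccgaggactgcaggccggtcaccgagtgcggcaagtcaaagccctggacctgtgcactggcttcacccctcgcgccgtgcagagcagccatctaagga

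Supt20: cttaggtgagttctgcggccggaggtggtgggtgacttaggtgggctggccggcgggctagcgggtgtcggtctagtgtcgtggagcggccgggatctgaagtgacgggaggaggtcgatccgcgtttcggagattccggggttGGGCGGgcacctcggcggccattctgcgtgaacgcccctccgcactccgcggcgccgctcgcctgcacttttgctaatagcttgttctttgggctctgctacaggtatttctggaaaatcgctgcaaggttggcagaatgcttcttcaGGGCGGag

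Prkci: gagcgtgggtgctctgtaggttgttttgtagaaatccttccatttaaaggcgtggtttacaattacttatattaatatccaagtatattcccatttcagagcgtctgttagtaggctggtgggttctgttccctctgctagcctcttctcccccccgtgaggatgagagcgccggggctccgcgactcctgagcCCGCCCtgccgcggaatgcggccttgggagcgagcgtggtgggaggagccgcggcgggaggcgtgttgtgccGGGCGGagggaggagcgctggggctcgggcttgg

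Atp11b: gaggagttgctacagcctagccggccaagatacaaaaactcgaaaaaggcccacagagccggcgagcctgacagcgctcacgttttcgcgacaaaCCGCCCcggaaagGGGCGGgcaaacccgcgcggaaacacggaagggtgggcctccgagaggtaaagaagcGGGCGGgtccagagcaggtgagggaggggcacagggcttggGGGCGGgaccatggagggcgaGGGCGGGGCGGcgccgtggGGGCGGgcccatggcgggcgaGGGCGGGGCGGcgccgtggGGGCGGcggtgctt

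The Atp11b promoter holds 10 GC boxes, counting overlapping ones, and the 3 others hold 2 each, so a gene of the high pair and a gene of the low pair hold the same number. None of the 4 holds CCAAT, the TATA box in the form TATAAA, the E-box in the form CACGTG or the NRF1 motif on either strand. Over the 41 promoters GGGCGG was found in 70.7%, beside 58.6% of 13005 promoters of genes that passed the filter and 35.6% of all 27018 promoters. CCAAT was in 31.7%, 38.8% and 37.8% of the same sets, the TATA box in 4.88%, 8.24% and 14.1%, and the E-box in 12.2%, 9.52% and 7.1%. The NRF1 motif was in 7.32% (3 of the 41 promoters), 1.79% and 0.962%. The median observed over expected CpG was 0.853 in the 41 promoters, 0.714 in those of genes that passed the filter and 0.38 in all. A match is a run of letters and says nothing of whether a factor binds there.

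The higher level in netrin-1 WT extended over most of the region and was not limited to the 60 genes. By median it was weakest from 20 to 25 Mb, where the 6 genes at 5 CPM or more had a median log2 fold change of 0.49, and 0.10 within number 3. That median lies between unlike genes. Hltf, Gyg and Tbl1xr1 were at 1.07, 1.49 and 0.93, and Gm7488, Gm31693 and Gm7536 at -0.17, -0.25 and 0.06. The 175 other tested genes between 5 and 55 Mb had a median log2 fold change of 0.77 in netrin-1 WT against control, and 52 of them (29.7%) had no overlap with control, all on the high side. Within numbers 1, 2 and 3 their median log2 difference was 0.85, 0.76 and 0.47. Of the 175, 99 (56.6%) were higher in every number, against 17% of all tested genes. Sox2, a core pluripotency factor that lies in the region without being among the 60, averaged 557 ± 218 CPM in netrin-1 WT cells, 356 ± 72.8 in unc5B MUT cells, 383 ± 85.3 in neo1 MUT cells and 322 ± 76.2 in control cells (SD, n = 3 each). Among genes of the whole region with a mean of 5 CPM or more, 111 in all, the median was 0.92, against -0.06 for the 410 such genes in the rest of chromosome 3. Chromosome medians outside the region ran between -0.29 (chromosome 15) and 0.07 (chromosome 6). Of 250 windows of 10 Mb with at least 10 such genes, 6 had a median over 0.5; 5 of these were the windows from 10 to 60 Mb of chromosome 3, at 0.79 to 1.06, and the other was the first 10 Mb of chromosome 14, at 0.63.

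**Figure D4:**
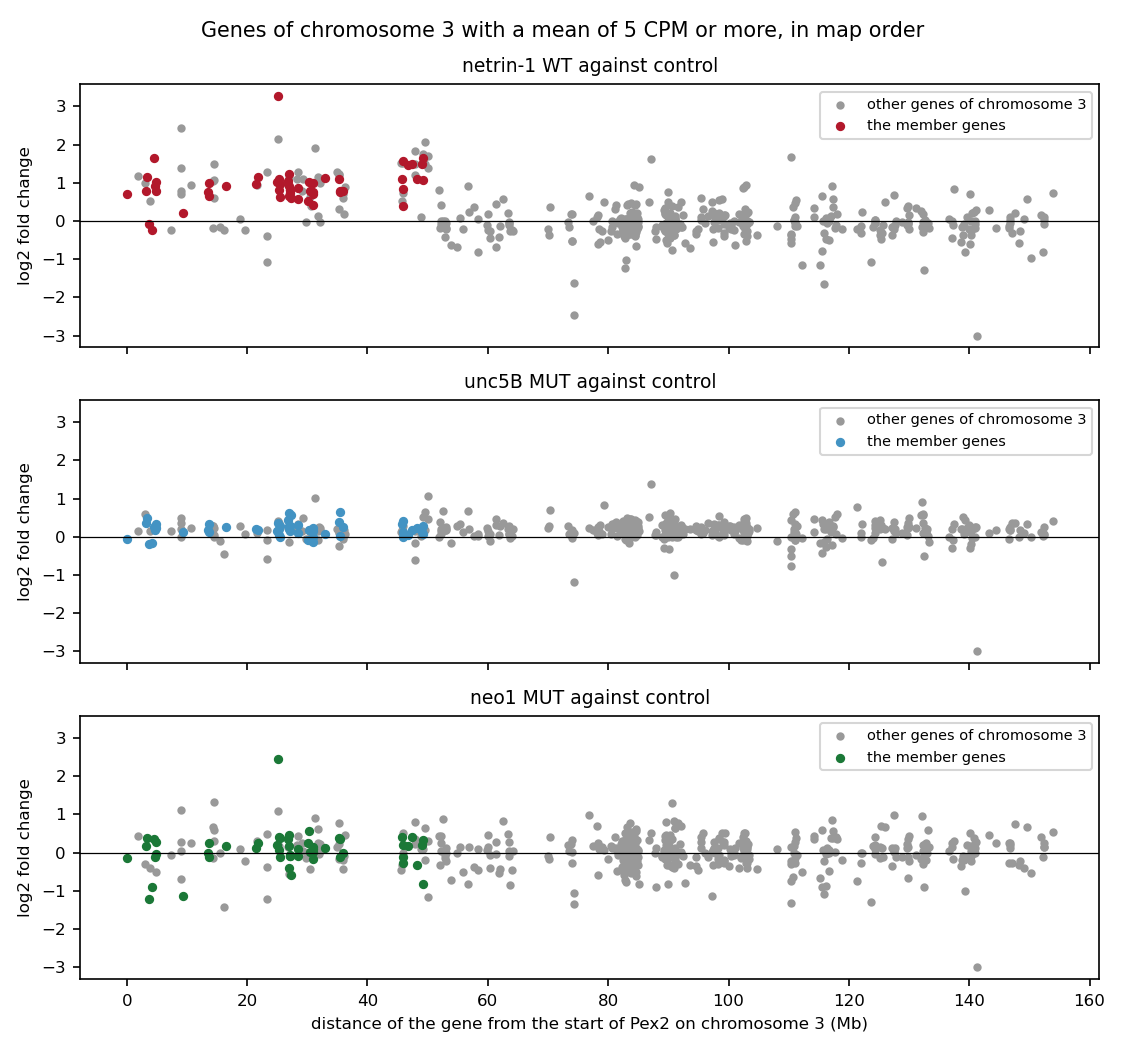
Log2 fold change against control (vertical axis) of the genes of chromosome 3 with a mean of 5 CPM or more, by distance from the start of Pex2 in Mb (horizontal axis), for netrin-1 WT (top), unc5B MUT (middle) and neo1 MUT (bottom). The 54 of the 60 genes that reach this level are in colour and all other genes in grey. In the top panel the genes lie mostly near 0.92 up to about 50 Mb from Pex2 and near 0 beyond.

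The distal end of the region had a higher level still. The 11 members from 45 to 55 Mb had a median log2 fold change of 1.10 in netrin-1 WT, against 0.80 for the 35 members from 20 to 45 Mb and 0.78 for the 14 from 5 to 20 Mb. With all genes of 5 CPM or more counted, the medians were 1.48 (19 genes, 2.78-fold), 0.88 (66 genes, 1.84-fold) and 0.78 (26 genes, 1.72-fold). No gene at 5 CPM or more starts between 45 and 50 Mb. Near the start of the region, Pex2 (5560188 to 5576239), a ubiquitin ligase of peroxisome import, was the first gene that passed the filter, since all 20 genes that start below 5 Mb failed it, so the proximal limit of the pattern was not detectable. Pex2 was at 7.58, 8.75 and 8.62 CPM in netrin-1 WT cells, 5.4, 4.59 and 4.67 in unc5B MUT cells, 4.36, 4.29 and 5.04 in neo1 MUT cells, and 5.2, 5.09 and 4.86 in control cells, while its next neighbours Gm8797 and Pkia had log2 fold changes of -0.33 and -0.93 at means of 2.69 and 1.06 CPM.

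At the distal side the pattern ran past 55 Mb. Just inside, Rfxap, Gm10254 and Sertm1 had log2 fold changes of 1.77, 0.85 and 2.60, and just outside, Ccna1, Gm43555 and Spg20 had 3.03, 0.03 and 1.5, although Gm10254, Sertm1, Ccna1 and Gm43555 were at means under 2 CPM. Spg20 (55112108 to 55137322), spartin, was at 64.6, 81.8 and 92.8 CPM in netrin-1 WT cells, 22.7, 32.8 and 40.7 in unc5B MUT cells, 25.1, 27.9 and 21.1 in neo1 MUT cells, and 20.1, 30.1 and 34.3 in control cells. Sohlh2 at 2.08, the non-coding Gm43549 at 1.38 and Nbea (55625195 to 56183701) at 1.70 followed. Wwtr1 (57455649 to 57575910), the TAZ co-activator of the Hippo pathway, had log2 differences of 1.14, 1.19 and -0.69 in numbers 1, 2 and 3, and from Commd2 (57644349 to 57651715) onward, at -0.18, the values lay around 0. Within the high stretch the pseudogene Gm5641 (54481438 to 54482925) was level between the groups, at a log2 fold change of 0.12. It was not alone, since other genes of the region at 5 CPM or more were level or lower, such as Gm17771 at -0.18, Rpl22l1 at -0.40 and Gm33051 at -1.06.

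**Figure D5:**
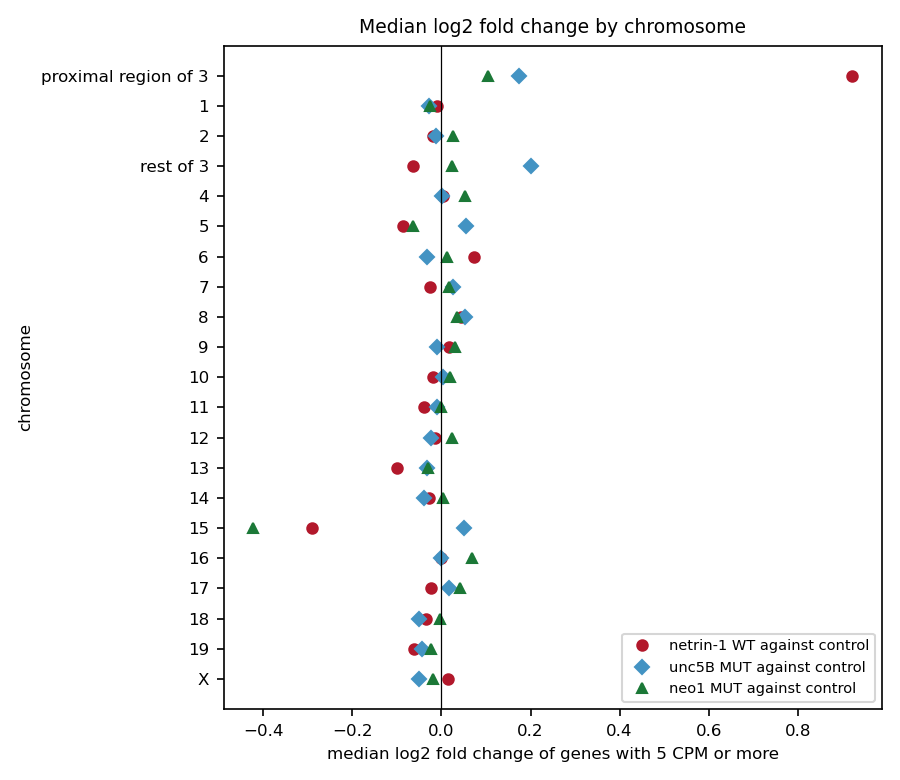
Median log2 fold change against control of genes with a mean of 5 CPM or more (horizontal axis) on each chromosome (rows), with the proximal region of chromosome 3 as its own row at the top, for netrin-1 WT (circles), unc5B MUT (diamonds) and neo1 MUT (triangles). The proximal region is at 0.92 in netrin-1 WT and at 0.17 in unc5B MUT and 0.11 in neo1 MUT, and the rest of chromosome 3 is at 0.20 in unc5B MUT.

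In the unc5B MUT cells the 60 genes were slightly above control. The median log2 fold change was 0.21 (1.16-fold), beside 0.02 over all tested genes, and it was 0.25, 0.20 and 0.20 within numbers 1, 2 and 3. The 3 unc5B MUT libraries were all above control for 12 of the 60 genes (Ect2, Ccna2, Plk4 and Hey1 among them), against 2.33% of all tested genes, and below it for none, against 2.05%. None of the 60 passed the edgeR test with or without the replicate block, against 0% of all tested genes in each direction without the block, and 0.0237% higher and 0.00475% lower with it. At an unadjusted p under 0.05, 3 of the 60 were higher without the block, where 0.57% of all tested genes were so placed, and 17 with it, where 2.49% were. DESeq2 also called none, against 0.0525% of all genes with an adjusted p. Neither did the authors' deposited table call any, against 0.0295% of all its genes higher and 0.0197% lower. The same shift was present along the whole chromosome, since genes of the rest of chromosome 3 at 5 CPM or more had a median of 0.20 (0.18, 0.15 and 0.24 within the numbers), the highest among 20 chromosomes, whose medians ran from -0.05 to 0.20. The difference between the 60 genes and the rest of the chromosome was not tested. This comparison, the next and those with netrin-1 WT each share 3 libraries with the one that chose the genes, so their values are descriptions.

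In the neo1 MUT cells most of the 60 genes were close to control. The median log2 fold change was 0.11, and 0.19, 0.13 and -0.02 within the numbers, beside 0.02 over all tested genes. All 3 neo1 MUT libraries were above control for 8 genes, against 5.4% of all tested genes, and below control for 3 (Zbtb10, Car2 and Alg5), against 5.96%. Without the block none of the 60 was called, where 0.0142% of all tested genes were called higher and 0.114% lower; 3 were higher and 3 lower at an unadjusted p under 0.05, where 2.93% and 4.34% of all tested genes were. With the block 1 was called higher (Lrrc31), against 1.97% of all tested genes, and 4 lower (Zbtb10, Pag1, Car2 and Alg5), against 3.3%. Leaving out any 1 of the 6 libraries left 2 or 3 of the 60 called. The log2 fold changes of these genes were 2.46 for Lrrc31, -1.21 for Zbtb10, -0.89 for Pag1, -1.12 for Car2 and -0.83 for Alg5.

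Set against netrin-1 WT, both mutants were lower over the region. In unc5B MUT the median log2 fold change of the 60 genes was -0.65, beside 0.01 over all tested genes, and all 3 libraries were below netrin-1 WT for 31 genes, against 4.43% of all tested genes. The edgeR test without the block called none, where 0% of all tested genes were called, although 32 of the 60 were lower at an unadjusted p under 0.05, where 2.54% of all tested genes were. With the block it called 34 as lower, against 0.964% of all tested genes, and none as higher, against 1%. That count changed with single libraries left out. It was 42 without netrin-1 WT library 3, 9 and 7 without netrin-1 WT libraries 1 and 2, and 4, 4 and 13 without unc5B MUT libraries 1, 2 and 3. The shares of all tested genes called in these fits are not given here, so the change cannot be read as particular to the 60 genes. In neo1 MUT the median was -0.80, and all 3 libraries were below netrin-1 WT for 41 genes, against 4.7%. The test called 2 as lower without the block, against 0.0712% of all tested genes, and 40 with it, against 1.6%, which became 22 without netrin-1 WT library 2 and 28 to 39 without any other. The authors' deposited table placed 41 genes lower than netrin-1 WT in each mutant, against 1.44% of all genes for unc5B MUT and 1.7% for neo1 MUT. Over all 4 groups netrin-1 WT had the highest mean CPM for 55 of the 60 genes, unc5B MUT for Tnik, Fgf2 and Slc7a11, and control for Zbtb10 and Pag1. The lowest mean was that of unc5B MUT for 3 genes, of neo1 MUT for 25 and of control for 32. Since the genes were chosen as higher in netrin-1 WT than in control, this order was partly set in advance, and nothing is read from it.

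The comparison of neo1 MUT with unc5B MUT shares no library with the comparison that chose the genes, so it is tested here. The median log2 fold change of the 60 was -0.15, beside -0.001 over all tested genes and -0.18 over the genes of the rest of chromosome 3 at 5 CPM or more, and within the numbers it was -0.10, -0.12 and -0.25. The summed share of counts differed by -0.0285 percentage points between the group means, with the libraries of both groups overlapping, and the difference turned to 0.0195 without neo1 MUT library 3. Without the replicate number no member passed the edgeR quasi-likelihood test, against 0.0142% of all tested genes higher and 0.119% lower, and 1 was higher and 4 were lower at an unadjusted p under 0.05, where 2.52% and 4.33% of all tested genes were. With the block 5 genes were lower, against 3.28% of all tested genes, and 1 was higher, against 1.59%.

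Those 6 genes differed in different ways. By edgeR's blocked quasi-likelihood test with Benjamini-Hochberg adjustment over all 21053 genes, Car2 fell by 1.22 ± 0.17 log2 units (SE, adjusted p = 0.00397) in neo1 MUT and was lower in all 3 numbers, and without the block its adjusted p was 0.166. Zbtb10 fell by 1.05 ± 0.17 (adjusted p = 0.0101, and 0.348 without the block) and Usp13 by 1.17 ± 0.24 (0.0235, and 0.245 without the block). Alg5 fell by 0.88 ± 0.18 (adjusted p = 0.0243, and 0.369 without the block), and Mfn1 by 0.53 ± 0.12 (0.0361, and 1 without the block). Lrrc31 rose by 2.18 ± 0.51 log2 units in neo1 MUT (adjusted p = 0.0368, and 0.445 without the block). In every one of the 6 the groups kept the direction in each replicate number. The blocked test that picked them favours such genes, so this is no separate support. They are spread over the region, from Zbtb10 near its proximal end to Alg5 near its distal end, with members between them that did not pass. Leaving out any 1 of the 6 libraries from the blocked fit left 1 to 4 of the 60 called. Without unc5B MUT library 3 the unblocked log2 fold change of Mfn1 turned to 0.556 (edgeR adjusted p = 0.91). That fit kept neo1 MUT library 3, at 205 CPM beside 50.5 and 51.3 in libraries 1 and 2, without the unc5B MUT library of that number. Within numbers 1, 2 and 3 the log2 difference of Mfn1 was -0.38, -0.516 and -0.7. The authors' deposited table placed 6 of the 60 lower, against 4.17% of its genes, and 1 higher, against 2.19%.

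Library 3 of each group differed from libraries 1 and 2 for many single genes and had the lowest summed share of counts, both for the 60 genes and for every gene of the region, while the median gene differed little. The share of every gene of the region was 1.19% in netrin-1 WT library 3, 0.825% in unc5B MUT library 3, 0.743% in neo1 MUT library 3 and 0.77% in control library 3, and libraries 1 and 2 had 0.909% or more in every group. The median log2 difference of the 60 genes between library 3 and the mean of libraries 1 and 2 was 0.06 in netrin-1 WT, 0.05 in unc5B MUT, -0.07 in neo1 MUT and 0.08 in control. Single genes ran from -2.80 (Lrrc31) to 1.98 (Mfn1) in netrin-1 WT and from -2.92 (Fgf2) to 2.5 (Mfn1) in control. The gene with the largest upward difference was Mfn1 in each of the 4 groups. Of the 8 genes that were not higher in every number, Zbtb10, Pag1, Fgf2 and Slc7a11 had mixed signs of small size or low level, Pld1 and Tnik were lower in number 2, and Atp11b and Anxa5 were lower in number 3.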

How the data were processed

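Per the labels' protocols, total RNA was purified on columns from CGR8 cells and sequenced, here as 12 libraries. Estimated counts, some of them not whole numbers, were deposited for 52661 Ensembl genes. The submitters' processing notes name STAR 2.5.2b, FastQC 0.11.5, Bowtie, Bowtie2, DESeq2 and R 3.3.2, with the builds GRCm38.p5, mm10 and GRCh38. The counting program and any use of strand are not given in the sources used here, and overlapping genes may therefore have shared their reads. Per the file headers, the authors' own comparisons cover 20347 genes and hold each gene's log2 fold change, signed fold score and p-value before and after adjustment. The deposited log2 normalized table was not used in any test.

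The tests had been planned for whole counts, so the estimated counts were rounded. The tests were those of edgeR 4.0.16, run under R 4.3.3 together with limma 3.58.1. All 12 libraries entered 1 model with the group as the only term, TMM normalization and filterByExpr, and 21053 genes passed. For the 6 comparisons edgeR gave quasi-likelihood F-tests, adjusted by the Benjamini-Hochberg method over all 21053 genes with a threshold of 0.05. They were tested on simulated data first. CPM values use TMM library sizes, log2 CPM a prior count of 2, and an SE is the log2 fold change over the square root of F. GENCODE M21 (GRCm38) gave coordinates for 52566 genes, and RefSeq (GRCm38.p6) the promoters. Alternatives were the replicate number as a block, DESeq2 1.42.0 and its size factors, no filter on low counts, only the groups compared, and each library left out.

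The titles give the groups shared replicate numbers. Deviations from the group means were correlated between libraries that share a number (r = 0.58 to 0.881 over 18 pairs, all above the minimum of 0.1) and between numbers 1 and 2 (0.492 to 0.758), and were opposed between number 3 and the others (-0.827 to -0.597). The numbers were therefore treated as pairs in the blocked fit and in the differences within numbers. The main fit, with the group as its only term, did not use them. This pairing was read from the titles and these correlations, because no label explains the numbers. The ranges for a shared number and for numbers 1 and 2 overlap. The correlations thus set number 3 apart but cannot show that libraries 1 and 2 pair by number. Deviations from a group mean cancel out within the group, so the opposed values are partly built in.

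The 60 genes, their grouping by function and the marker lists were chosen with earlier results of these data known. Genes named with all their values were the 15 with the highest mean CPM, the 3 largest and 3 smallest log2 fold changes in netrin-1 WT against control, up to 6 abundant genes whose netrin-1 WT libraries were not all above control, and those called between the mutants. Other genes were named after their values were seen.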

Additional observations from a re-analysis of the deposited data

How the results depend on the processing

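The direction of the median over the 60 genes was kept in each of the 6 comparisons under every alternative run, and what varied was how many of the genes passed the threshold. The replicate block, which the shared numbers make the paired fit, called 42 (netrin-1 WT against control), 5 (neo1 MUT against control), 34 (unc5B MUT against netrin-1 WT), 40 (neo1 MUT against netrin-1 WT) and 6 (neo1 MUT against unc5B MUT), beside 3, 0, 0, 2 and 0 without it, and 0 for unc5B MUT against control in both. DESeq2 called 23, 3, 12, 18 and 2 in the same order, beside 1.52%, 1.94%, 0.909%, 1.01% and 1.71% of all genes with an adjusted p. Leaving out number 3 in every group gave 43, 3, 27, 25 and 1, beside 4.22%, 2.76%, 2.03%, 0.909% and 2.32% of all, with medians of 0.96 for netrin-1 WT against control and -0.86 for neo1 MUT against netrin-1 WT. Without a filter on low counts, netrin-1 WT against control and neo1 MUT against netrin-1 WT gave 0, beside 0.033% and 0.028% of all genes. With only the 2 groups compared both again gave 0, beside 0% and 0.00532% of all. DESeq2's size factors in edgeR gave 1 for the comparison of neo1 MUT with netrin-1 WT, beside 0.0665% of all. The cause was not tested.

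With each library left out in turn, counts without the block were 0 to 1 for netrin-1 WT against control and 0 in the other comparisons. With block and 1 library left out, they were 23 (without control replicate 1) to 45, 2 to 3, 4 (without unc5B MUT replicate 1 or 2) to 42, 22 (without netrin-1 WT replicate 2) to 39, and 1 to 4 (without unc5B MUT replicate 1, and without neo1 MUT replicate 1). Medians without a library ran from 0.757 to 0.998 and, with the block, from 0.812 to 0.932 for netrin-1 WT against control; from 0.17 to 0.289 and 0.186 to 0.259 for unc5B MUT against control; from 0.039 to 0.157 and 0.033 to 0.129 for neo1 MUT against control; from -0.745 to -0.605 and -0.709 to -0.645 for unc5B MUT against netrin-1 WT; from -0.826 to -0.809 and -0.86 to -0.789 for neo1 MUT against netrin-1 WT; and from -0.227 to -0.132 and -0.18 to -0.127 for neo1 MUT against unc5B MUT, where leaving out number 3 in every group gave -0.116. The difference in the share of counts between neo1 MUT and unc5B MUT was -0.0619 percentage points with every gene of the region, and ran from -0.061 to 0.0195 with a library left out, the last without neo1 MUT replicate 3. The log2 fold change of Mfn1 in neo1 MUT against unc5B MUT ran from -1.632 without neo1 MUT replicate 3 to 0.556, the other way, without unc5B MUT replicate 3. These fits were unblocked and kept library 3, where Mfn1 was several times as high, only in the group from which no library was left out.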

Other observations

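Outside the region, the genes whose levels over the 12 libraries followed the mean of the 60 most closely, after the mean of each replicate number was taken out, were Plekha5 on chromosome 6 (Pearson r = 0.974), Spg20 just past 55 Mb of chromosome 3 (0.967), Ltk on chromosome 2 (0.962), Lmo7 on chromosome 14 (0.962) and Ptms on chromosome 6 (0.955). These are descriptions over 12 libraries that fall into 4 groups, and the genes were picked for this likeness from all tested genes. Plekha5 was at 99.5, 103 and 92.2 CPM in netrin-1 WT cells, 55.6, 58.9 and 65.7 in unc5B MUT cells, 56, 51.1 and 55.6 in neo1 MUT cells, and 55.2, 59.1 and 58.8 in control cells. Lmo7, which links the cytoskeleton to cell junctions, was at 20.5, 17.2 and 17.7 CPM in netrin-1 WT cells, 9.86, 9.62 and 10.1 in unc5B MUT cells, 10.3, 8.42 and 10.3 in neo1 MUT cells, and 8.19, 7.94 and 7.37 in control cells. In both genes all netrin-1 WT libraries were above every other library.

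Of the 60 genes, Fgf2 and Slc7a11 followed the common pattern least (r = 0.0288 and 0.0301), then Pag1 (0.161) and Zbtb10 (0.387).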
